A study of Mus musculus with 24 samples.

Results

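Gene expression was compared between day 5 and day 3 in mouse bone marrow macrophages cultured with macrophage colony-stimulating factor (M-CSF) and no other added cytokine, called M-CSF alone here. The comparison used 6 of the 24 RNA-seq libraries of the study, 3 from day 5 and 3 from day 3, chosen by their labels as control genotype without receptor activator of NF-κB ligand (RANKL). All 6 libraries came from Rosa26-Runx1tg/+ cells, which carry a Runx1 transgene at the Rosa26 locus and no Cre, and which the submitters label wild type control. Marrow was flushed from long bones, macrophages were expanded on petri dishes, 15000 cells were seeded per well, medium was renewed every 2 days, and 250 ng of total RNA entered each library. For wells that had no RANKL the sources used here do not give the concentration of M-CSF, nor the age or sex of the mice. Libraries of each day are numbered 1 to 3, and the labels do not say what was separate between numbers (animals, cultures or plates). The p-values therefore set each change only against the spread between libraries, estimated over all 24 libraries of the study. Some of that spread may be technical.

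Changes over the same days in other groups served as comparators, each with 3 libraries per day. The first was Rosa26-Runx1tg/+ cells in M-CSF with RANKL, the cytokine that drives macrophages to become bone-resorbing osteoclasts, in a medium whose RANKL was 50 ng/mL and whose M-CSF was 30 ng/mL. The second was LysM-Cre;Rosa26-Runx1tg/+ cells in M-CSF alone, in which Cre is driven from the lysozyme 2 gene of myeloid cells and which are labelled Runx1 gain of function. Runx1 averaged 106 ± 11.9 CPM at day 5 and 79.4 ± 12.8 CPM at day 3 in control cells, and 106 ± 3.97 and 86 ± 11.7 CPM in LysM-Cre cells (SD, n = 3 each), where CPM is the count per 1000000 counts of the scaled library. The genotype difference in Runx1 was not tested, and the sources used here do not say whether transgene reads were counted.

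M-CSF acts through the receptor kinase Csf1r, which signals through the ERK and PI3K pathways, and macrophages from marrow depend on it for survival and for growth in culture. A dividing cell passes through a phase in which origins of replication are licensed and DNA is copied, and then through mitosis, in which cyclin B with Cdk1 drives the assembly of kinetochores and the spindle. Genes of mitosis are repressed outside the late cell cycle by the DREAM complex and activated by B-Myb and FoxM1, whereas replication genes are controlled chiefly by E2F factors.

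The day 5 libraries held 19122122 to 20789317 counts and the day 3 libraries 20313910 to 23455796 counts, so that a single read was worth 0.0499 to 0.0542 CPM at day 5 and 0.0403 to 0.0466 CPM at day 3. Genes with at least 1 count numbered 18667 to 18910 at day 5 and 19307 to 19474 at day 3. Mitochondrial transcripts took 1.54% ± 0.0153 of counts at day 5 and 1.69% ± 0.08 at day 3 (SD, n = 3 each). The first principal component of the 6 libraries held 54.4% of the variance and separated the days, with scores of −54.7, −42.6 and −26 at day 5 and 65.9, 37.8 and 19.5 at day 3. Day 3 library 1 lay farthest out. Many of the results below rest partly on it.

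The labels name the cell type as osteoclasts, and the 4 markers that follow did not bear this out for cells without RANKL. Oscar and Calcr, receptors of osteoclasts, had 0 counts in all 6 libraries, and Acp5, the acid phosphatase that osteoclasts secrete, had 4.39, 4.39 and 6.60 CPM at day 5, against 10.4, 9.51 and 7.66 CPM at day 3. Ctsk, the collagen-degrading protease of osteoclasts, had 1.90, 2.00 and 1.80 CPM at day 5, against 5.92, 3.22 and 2.82 CPM at day 3. Other osteoclast genes rose. Of the 17 in the osteoclast list, 5 were called higher at day 5 and 2 lower, against 12.2% and 11.5% of all genes. Mmp9 and Tnfrsf11a, the receptor for RANKL, were higher at day 5, with values given below. Genes that mark macrophages were present throughout. The M-CSF receptor gene Csf1r had 2435, 2303 and 2245 CPM at day 5, against 3491, 2190.4 and 1886 CPM at day 3 (log2 change −0.12, SE 0.20, adjusted p = 0.715), and it overlaps Hmgxb3 on the other strand. The surface marker Adgre1, which encodes F4/80, had 1409.6, 1424 and 1329 CPM at day 5, against 1403, 1047 and 921 CPM at day 3 (log2 change 0.30, SE 0.26, adjusted p = 0.427), and the integrin gene Itgam had 327, 360.5 and 363 CPM at day 5, against 323, 369 and 338 CPM at day 3 (log2 change 0.03, SE 0.14, adjusted p = 0.914). The day 5 and day 3 values of these 3 macrophage genes overlapped, and none passed the test. Other macrophage genes did change. Cd68 was called higher at day 5, and the call was lost when any of the 6 libraries was left out (log2 change 0.31 to 0.36). Of all 23 macrophage genes listed, 6 were called higher and 1 lower, as described below. The cells are therefore called macrophages here.

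Of 15035 genes tested across all 24 libraries with edgeR's quasi-likelihood test, 3570 differed between day 5 and day 3 at a Benjamini-Hochberg adjusted p under 0.05, which is 23.7% of those tested. Of these, 1838 were higher at day 5 (12.2% of genes tested) and 1732 were lower (11.5%). Changes of over 2-fold were more often falls, with 411 genes higher (2.73%) and 700 lower (4.66%). The 3 day 5 values all lay above the 3 day 3 values for 3182 genes (21.2%) and all below for 2681 (17.8%). The median log2 change over all genes tested was 0.01. With libraries scaled by their total counts alone this median moved from 0.0137 to −0.0893, and the calls became 1063 higher and 2541 lower. Without day 3 library 1 the count was 1920 of 15484 genes tested (1003 higher and 917 lower). Without day 5 library 1 it was 2049 of 15514 (1079 higher and 970 lower). A fit of the 6 libraries alone tested 12924 genes and called 938 higher and 1151 lower. With libraries of the same number treated as a replicate block it called 259 higher and 468 lower. Counts of list members in such fits, given below, stand beside these totals over all genes.

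Ccnb2 encodes cyclin B2, a partner of Cdk1 in mitosis (ENSMUSG00000032218, chromosome 9, 70407692 to 70421547, minus strand, as deposited, with positions that match GRCm38). Its level was 3.59, 4.12 and 4.28 CPM at day 5, against 97.6, 94.4 and 83.9 CPM at day 3, and every day 5 value was below every day 3 value. It was 23-fold lower at day 5 (log2 change −4.52, SE 0.16, adjusted p = 1.63e-13, 95% interval −4.87 to −4.18), with the smallest adjusted p of all genes tested. Cenpf, a kinetochore protein (ENSMUSG00000026605, chromosome 1, 189640606 to 189688086), had 7.78, 4.50 and 7.63 CPM at day 5, against 128, 97.9 and 116 CPM at day 3. The groups again did not overlap, and the level was 17.1-fold lower at day 5 (log2 change −4.10, SE 0.26, adjusted p = 6.28e-10, 95% interval −4.64 to −3.56). Mki67, the proliferation antigen that coats mitotic chromosomes (ENSMUSG00000031004, chromosome 7, 135689784 to 135716361), had 108, 77.5 and 120.2 CPM at day 5, against 599.9, 731 and 854 CPM at day 3. It was 7.14-fold lower at day 5 (log2 change −2.84, SE 0.24, adjusted p = 6.51e-08, 95% interval −3.35 to −2.32), again without overlap. Mmp9, a matrix metalloproteinase made by macrophages and osteoclasts (ENSMUSG00000017737, chromosome 2, 164940780 to 164955850), went the other way with 20.9, 26.8 and 24 CPM at day 5, against 7.23, 10.0 and 9.79 CPM at day 3. All 3 day 5 values were above all 3 day 3 values, and the level was 2.65-fold higher at day 5 (log2 change 1.40, SE 0.22, adjusted p = 0.000115, 95% interval 0.95 to 1.85). In bulk RNA, fewer cells in a phase of the cycle and less RNA per cell cannot be told apart.

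**Figure D1:**
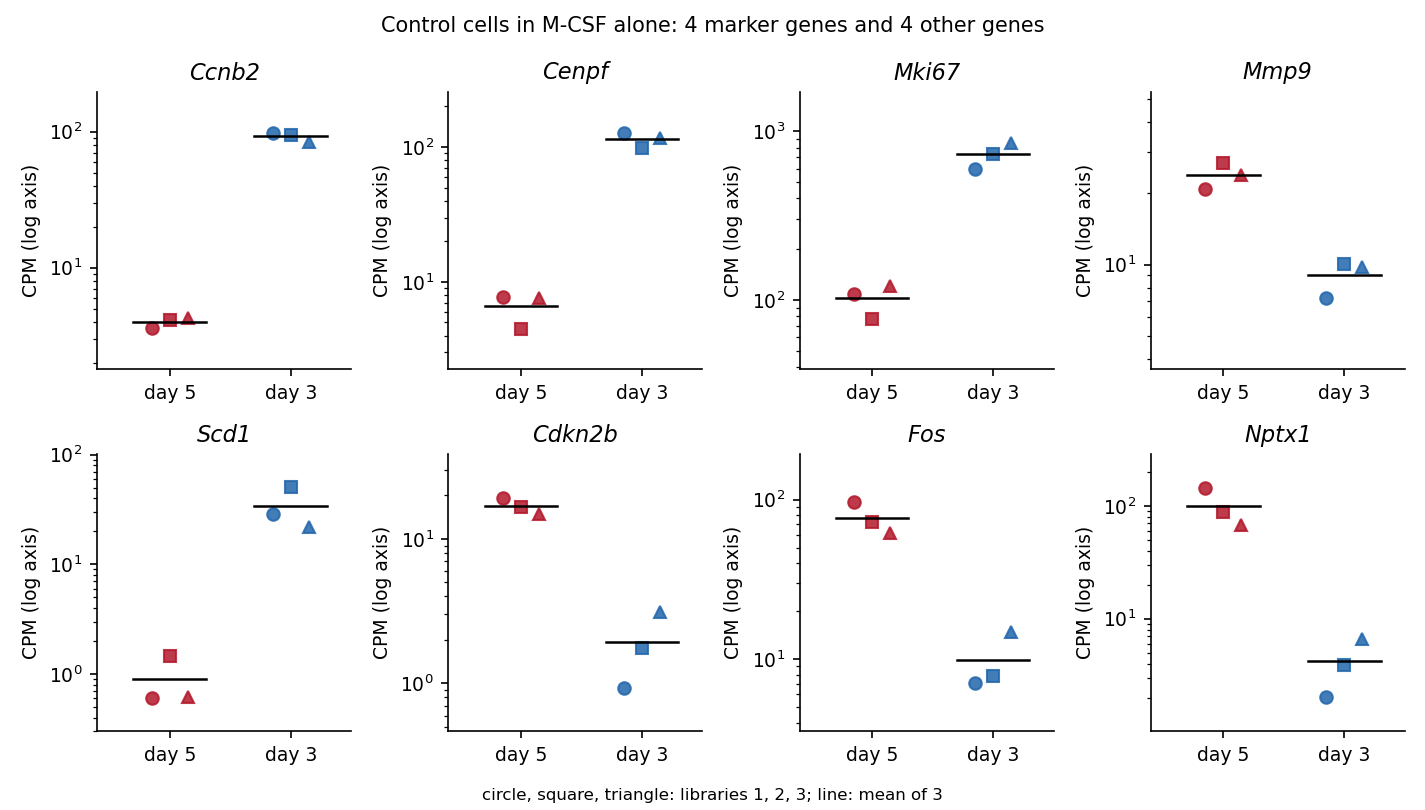
Levels of 8 genes in each library of control cells in M-CSF alone, in CPM on log axes, with day 5 at the left and day 3 at the right of each panel; symbols mark the library number and the line is the mean of 3. Ccnb2, Cenpf, Mki67 and Scd1 lie lower at day 5, and Mmp9, Cdkn2b, Fos and Nptx1 lie higher, without overlap between the days.

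The promoters of the mitosis genes are shown because these genes moved together. Each line gives the 250 bases before the RefSeq transcription start on the build GRCm38.p6, read 5′ to 3′ on the strand of the gene, with the last base next to the start. Capitals mark 2 motifs. The first is CCAAT (or ATTGG, its reverse complement), the site of NF-Y, and the second is the word TTTGAA or TTCGAA on either strand (TTCAAA is the reverse of the first), which is the core of the cell cycle homology region that DREAM and B-Myb bind in mitosis genes. The genes are the markers with an entry, the mitosis genes Aspm and Bub1b, and the replication genes Dbf4 and Asf1b.
Ccnb2, chr9:70421555-70421804, minus strand: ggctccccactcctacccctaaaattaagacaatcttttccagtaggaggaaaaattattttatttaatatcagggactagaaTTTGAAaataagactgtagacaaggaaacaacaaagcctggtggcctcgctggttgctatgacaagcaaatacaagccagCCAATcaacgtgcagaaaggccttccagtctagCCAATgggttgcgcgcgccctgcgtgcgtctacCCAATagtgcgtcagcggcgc
Cenpf, chr1:189688087-189688336, minus strand: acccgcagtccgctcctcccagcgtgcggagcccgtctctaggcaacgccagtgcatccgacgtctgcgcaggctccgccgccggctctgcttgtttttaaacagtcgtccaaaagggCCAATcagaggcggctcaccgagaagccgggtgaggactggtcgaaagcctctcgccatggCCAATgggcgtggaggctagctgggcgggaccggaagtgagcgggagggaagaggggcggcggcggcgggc
Mki67, chr7:135716380-135716629, minus strand: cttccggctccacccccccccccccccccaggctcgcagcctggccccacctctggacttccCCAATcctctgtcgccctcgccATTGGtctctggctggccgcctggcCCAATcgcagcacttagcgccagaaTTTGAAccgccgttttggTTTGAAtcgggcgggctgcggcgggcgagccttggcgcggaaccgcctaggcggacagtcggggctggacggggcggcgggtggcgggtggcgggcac
Aspm, chr1:139454523-139454772, plus strand: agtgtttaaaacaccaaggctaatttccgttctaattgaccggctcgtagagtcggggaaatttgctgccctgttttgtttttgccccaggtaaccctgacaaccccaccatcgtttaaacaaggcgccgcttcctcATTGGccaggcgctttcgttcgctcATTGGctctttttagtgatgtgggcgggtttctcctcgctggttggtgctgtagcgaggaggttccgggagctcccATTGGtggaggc
Bub1b, chr2:118597961-118598210, plus strand: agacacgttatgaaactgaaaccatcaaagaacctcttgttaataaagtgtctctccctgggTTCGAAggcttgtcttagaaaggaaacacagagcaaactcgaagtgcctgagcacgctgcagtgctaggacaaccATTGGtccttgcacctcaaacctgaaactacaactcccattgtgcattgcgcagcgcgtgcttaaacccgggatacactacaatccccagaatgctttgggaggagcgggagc
Dbf4, chr5:8422717-8422966, minus strand: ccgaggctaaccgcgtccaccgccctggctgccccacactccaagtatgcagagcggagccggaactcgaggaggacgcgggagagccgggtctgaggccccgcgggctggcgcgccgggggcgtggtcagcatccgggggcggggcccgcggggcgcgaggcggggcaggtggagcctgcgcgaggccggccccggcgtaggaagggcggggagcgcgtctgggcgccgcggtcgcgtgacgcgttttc
Asf1b, chr8:83955444-83955693, plus strand: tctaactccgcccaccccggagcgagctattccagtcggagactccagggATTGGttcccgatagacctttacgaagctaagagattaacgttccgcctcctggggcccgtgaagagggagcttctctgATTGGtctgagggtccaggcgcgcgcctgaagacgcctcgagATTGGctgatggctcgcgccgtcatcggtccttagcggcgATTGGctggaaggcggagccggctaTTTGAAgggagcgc
The 3 CCAAT words of Ccnb2 begin 87, 54 and 21 bases before its start, and Cenpf has 2, at 132 and 71 bases. Mki67 has 2 TTTGAA words, at 116 and 98 bases, and 3 CCAAT or ATTGG words upstream of them. Dbf4, with a log2 change of −1.34, holds neither word. Of the 92 mitosis genes described below, 73 had a promoter in the table, and CCAAT was in 47 of these (64.4%), the TTTGAA or TTCGAA word in 26 (35.6%) and both in 21 (28.8%). Among the 36 promoters of 46 replication genes the shares were 61.1%, 19.4% and 16.7%. Among the 9246 promoters matched to all genes tested they were 36.8%, 12.2% and 4.9%, and among all 32851 promoters listed they were 33.8%, 17.1% and 6.02%. A match is a stretch of letters, not a measured binding site.

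Mitosis genes fell together. Of 92 tested genes in 4 lists (mitotic kinases, kinetochore, spindle, mitotic chromosome structure), 88 were lower at day 5, 0 were higher and 4 did not pass the test, against 11.5% of all genes lower. Of the 88, 82 were lower by more than 2-fold. The median log2 change of the 92 was −2.23, which is 4.68-fold lower, beside 0.01 for all genes tested. Of the 4 that did not pass, which are named after their values were seen, Pttg1 (securin) had 14.5, 14 and 16.2 CPM at day 5, against 15, 14.9 and 13.9 CPM at day 3 and Wee1, the kinase that holds Cdk1 inactive, had 29.6, 28.6 and 30.3 CPM at day 5, against 22.1, 29.1 and 38.5 CPM at day 3. The other 2 were Mybl2, which encodes B-Myb (log2 change −0.28), and the kinetochore gene Cenpk (−0.65).

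Among cyclins, kinases and their regulators, 22 of 25 fell (median −2.31). Bub1b, the checkpoint kinase BubR1 that delays anaphase, had 19.1, 18.9 and 16.3 CPM at day 5, against 108, 121 and 116 CPM at day 3 (log2 change −2.66, SE 0.14, adjusted p = 5.55e-11). Cdc20, the activator of the anaphase-promoting complex, had 6.93, 7.15 and 7.52 CPM at day 5, against 77.1, 77 and 76.3 CPM at day 3 (log2 change −3.41, SE 0.21, adjusted p = 3.12e-10), and it overlaps Elovl1 on the other strand. Plk1, the polo kinase of spindle assembly, had 8.78, 10.1 and 9.48 CPM at day 5, against 66.9, 82.9 and 94.1 CPM at day 3 (log2 change −3.10, SE 0.20, adjusted p = 5.78e-10). Espl1, the separase that cuts cohesin, had 11.1, 13.1 and 15 CPM at day 5, against 57.8, 66.7 and 69.5 CPM at day 3. In these 4 genes no day 5 value reached a day 3 value. Ube2c, the ubiquitin-conjugating enzyme that works with the anaphase-promoting complex, was 11.4-fold lower (log2 change −3.51, SE 0.26, adjusted p = 5.79e-09), and the Cdk-binding phosphatase Cdkn3 was 15.1-fold lower (log2 change −3.92, SE 0.25, adjusted p = 5.78e-10).

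Kinetochore and centromere genes fell in 25 of 26 cases (median −1.76). Cenpa, the histone H3 variant that marks the centromere, had 8.23, 11 and 14.9 CPM at day 5, against 148, 111 and 95.7 CPM at day 3 (log2 change −3.38, SE 0.19, adjusted p = 1.51e-10). Nuf2 and Ndc80 are subunits of the complex that grips microtubules. Nuf2 had 9.88, 12.6 and 11 CPM at day 5, against 45.8, 64.3 and 72.8 CPM at day 3, and Ndc80 had 11.7, 10.5 and 10.9 CPM at day 5, against 40.3, 59 and 54.3 CPM at day 3. Cenpe, a kinetochore motor, was 6.39-fold lower (log2 change −2.68, SE 0.24, adjusted p = 1.17e-07). None of these overlapped between the days.

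All 29 spindle and cytokinesis genes tested fell (median −2.54). The same count came from leaving out each library in turn, from scaling by total counts and from fits of the 6 libraries alone. Aspm, which organises spindle poles, had 6.68, 6.39 and 5.31 CPM at day 5, against 116, 108 and 94.9 CPM at day 3 (log2 change −4.12, SE 0.21, adjusted p = 5.04e-11). Kif2c, a kinesin that depolymerises microtubules, had 5.29, 4.23 and 4.59 CPM at day 5, against 57.3, 58.2 and 54.7 CPM at day 3 (log2 change −3.59, SE 0.19, adjusted p = 5.55e-11). Kif20a, the kinesin of the central spindle, had 8.63, 9.10 and 7.78 CPM at day 5, against 86.4, 81.2 and 76.9 CPM at day 3 (log2 change −3.26, SE 0.17, adjusted p = 5.04e-11), and it overlaps Cdc23 on the other strand. Stmn1, the microtubule-destabilising protein stathmin, and Ckap2, a spindle protein, were 4.12-fold and 7.20-fold lower. Hmmr, a hyaluronan receptor that also binds the spindle, was 12.3-fold lower, without overlap. Outside the lists, Fam83d was 12.2-fold lower, the helicase gene Pif1 13-fold and Pimreg 10.7-fold, each without overlap.

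Genes of mitotic chromosome structure fell in 12 of 12 cases (median −1.59). The condensin subunits Ncapd2 and Ncapg were 4.65-fold and 5.05-fold lower, and Ncapg overlaps Lcorl on the other strand. Smc4, the condensin core shared by both complexes, had 72.6, 62.1 and 71.8 CPM at day 5, against 180.3, 192 and 212 CPM at day 3 (log2 change −1.50, SE 0.15, adjusted p = 3.58e-07). Hmgb2, a chromatin protein, had 34.8, 37.4 and 44 CPM at day 5, against 109, 128 and 136 CPM at day 3 (log2 change −1.68, SE 0.15, adjusted p = 7.99e-08). The numbers of called genes in the 4 lists stayed at 21 to 22, 22 to 26, 29 and 10 to 12 over the same alternatives, in the order in which the lists are given here.

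Of 46 replication genes tested in 2 lists, 2 were higher at day 5, 4 were lower and 40 did not pass the test. Over all genes tested, 12.2% were higher and 11.5% were lower. The median log2 change of the 46 was 0.07, which is smaller than the shift between scalings given above. The medians of the lists were 0.142 for origins and 0.0491 for forks, and both were −0.137 without day 3 library 1, so no direction is given for them. Mcm6 and Mcm2 encode subunits of the replicative helicase. Mcm6 had 267, 276 and 252 CPM at day 5, against 64.2, 183 and 239 CPM at day 3 (log2 change 0.71, SE 0.34, adjusted p = 0.137). Mcm2 had 142, 137 and 137 CPM at day 5, against 20.9, 82.6 and 125 CPM at day 3 (log2 change 0.86, SE 0.45, adjusted p = 0.172). In both, day 3 library 1 held the lowest value, and all 3 day 5 values lay above that of day 3 library 3, the highest of day 3. Without day 3 library 3, both passed the test (log2 change 1.10 for Mcm6 and 1.42 for Mcm2).

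Of the 20 origin genes, 1 rose and 2 fell. Dbf4, the activating subunit of the kinase that fires origins, had 20.9, 21.6 and 25.2 CPM at day 5, against 55.9, 55.4 and 59.5 CPM at day 3 (log2 change −1.34, SE 0.15, adjusted p = 1.47e-06), with no overlap. Cdt1, which loads the Mcm helicase, had 86.2, 80.9 and 83.8 CPM at day 5, against 27.1, 44.2 and 56.9 CPM at day 3 (log2 change 0.97, SE 0.23, adjusted p = 0.00568), also with no overlap. The summed level of the origin list was 1327, 1348 and 1343 CPM at day 5, against 517, 1143 and 1450.0 CPM at day 3, so that day 3 library 1 had less than any other library. Of the 26 fork and chromatin assembly genes, 1 rose and 2 fell. Asf1b, a histone chaperone, had 28.1, 30.7 and 30.7 CPM at day 5, against 44.8, 71.9 and 83 CPM at day 3 (log2 change −1.16, SE 0.21, adjusted p = 0.00051). Pcna, the sliding clamp of DNA polymerase, had 480.3, 404 and 386 CPM at day 5, against 138, 281 and 351 CPM at day 3 (log2 change 0.72, SE 0.26, adjusted p = 0.0484), and the call was lost when any library but day 3 library 3 was left out (0.43 without day 3 library 1). Without day 3 library 3 the origin list held 4 higher and 1 lower, and the fork list 3 higher and 1 lower. Without day 3 library 1 the origin list held 1 higher and 2 lower, and the fork list 0 higher and 3 lower.

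**Figure D2:**
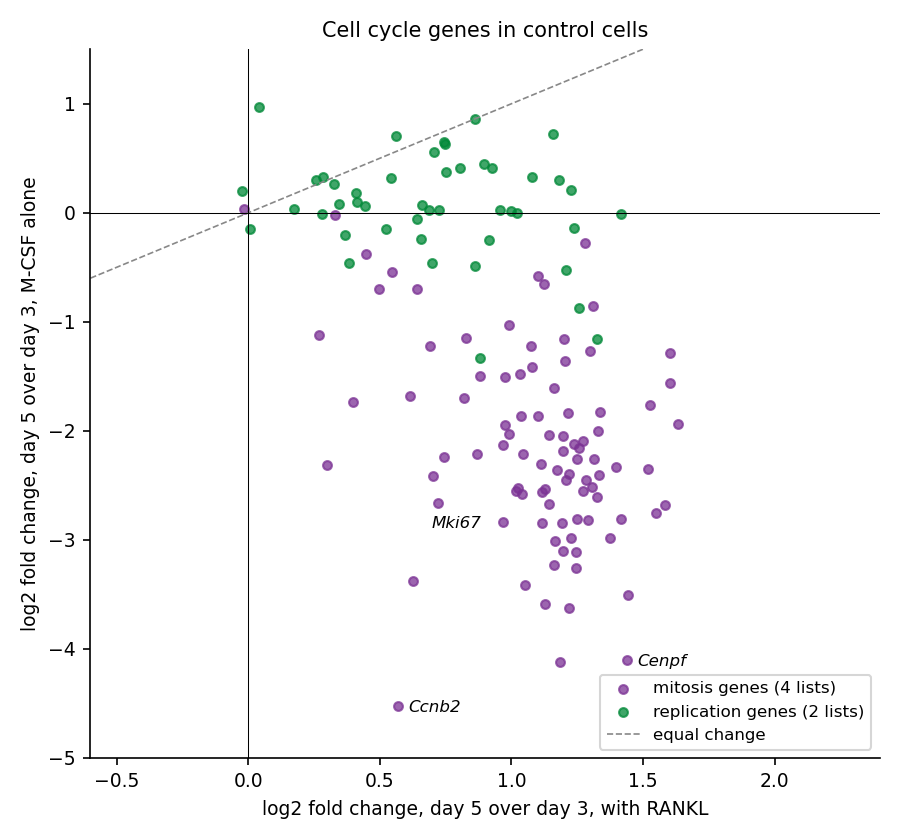
Log2 fold change between day 5 and day 3 in control cells, in M-CSF alone (vertical axis) against M-CSF with RANKL (horizontal axis); each point is a gene, purple for 92 mitosis genes and green for 46 replication genes, and the dashed line marks equal change. Of the mitosis genes 91 lie below 0 in M-CSF alone, with a median of −2.23, and the replication genes have a median of 0.07.

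Of 19 nucleotide synthesis genes, 3 were higher and 3 were lower, against 12.2% and 11.5% of all genes. Tk1, the thymidine kinase that rises with S phase, had 40.3, 39.8 and 47.8 CPM at day 5, against 58.4, 91.5 and 107 CPM at day 3 (log2 change −1.01, SE 0.22, adjusted p = 0.00271). It overlaps Afmid on the other strand. Rrm1, the large subunit of ribonucleotide reductase, had 133, 135 and 133 CPM at day 5, against 158, 256 and 293 CPM at day 3 (log2 change −0.81, SE 0.21, adjusted p = 0.01). Atic, an enzyme of purine synthesis, had 157, 129 and 140.0 CPM at day 5, against 34.2, 66.7 and 95.3 CPM at day 3 (log2 change 1.12, SE 0.29, adjusted p = 0.00969), and it did not pass the test without day 3 library 1 (log2 change 0.82), when the list held 0 higher and 3 lower. It held 7 higher and 2 lower without day 3 library 3. The fit of the 6 libraries alone gave 0 higher and 2 lower. With libraries of the same number treated as a replicate block it gave 0 and 1. Of 25 DNA repair and checkpoint genes, 7 fell and 1 rose (median −0.41), against 11.5% and 12.2% of all genes. Without day 3 library 1 the counts were 12 lower and 0 higher. Fancd2 and Fanci form the complex that marks crosslinked DNA. Fancd2 had 9.03, 7.21 and 6.55 CPM at day 5, against 22.1, 25.8 and 27.7 CPM at day 3, and Fanci had 6.44, 7.15 and 6.39 CPM at day 5, against 14.6, 20.1 and 21.8 CPM at day 3. Their log2 changes were −1.73 (SE 0.23) and −1.50 (SE 0.21), with no overlap, and Fanci overlaps Polg on the other strand. The checkpoint kinase gene Chek2 had 16.6, 23.7 and 22 CPM at day 5, against 40.3, 52.9 and 39.1 CPM at day 3 (log2 change −1.09, SE 0.19, adjusted p = 0.000346).

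Inhibitors of cyclin-dependent kinases moved in both directions. Of 15 CDK inhibitors and antiproliferative genes tested, 9 fell and 3 rose, against 11.5% and 12.2% of all genes (median −0.55). Cdkn2b, which encodes the G1 inhibitor p15, rose to 19.3, 16.6 and 14.9 CPM at day 5, against 0.932, 1.77 and 3.14 CPM at day 3, an 8.57-fold rise (log2 change 3.10, SE 0.45, adjusted p = 7.33e-05). Cdkn2c and Cdkn2d, of the same family, fell. Cdkn2c, which encodes p18, had 24.9, 28.9 and 29.1 CPM at day 5, against 108, 129 and 129 CPM at day 3 (log2 change −2.14, SE 0.13, adjusted p = 2.37e-10). Cdkn2d, which encodes p19, had 10.4, 8.34 and 12 CPM at day 5, against 28.1, 32.9 and 36.3 CPM at day 3 (log2 change −1.66, SE 0.18, adjusted p = 1.14e-06). Ccng2, an antiproliferative cyclin, had 18.3, 24.6 and 23.4 CPM at day 5, against 116, 78.3 and 50.2 CPM at day 3 (log2 change −1.88, SE 0.30, adjusted p = 0.000195). In all 4 genes the days did not overlap. Without day 3 library 1 the list held 6 lower and 1 higher.

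Of 19 genes of G1 cyclins, their kinases, E2F and Rb factors, 3 rose and 3 fell, against 12.2% and 11.5% of all genes. E2f2, an activating E2F factor, had 28.5, 29.9 and 33.2 CPM at day 5, against 42.7, 61.2 and 69 CPM at day 3 (log2 change −0.92, SE 0.19, adjusted p = 0.0018). Rbl2, the pocket protein p130 of the DREAM complex, had 47, 55.6 and 49.8 CPM at day 5, against 112, 85.1 and 75.4 CPM at day 3 (log2 change −0.84, SE 0.19, adjusted p = 0.00343), with overlapping genes on the other strand. Cdk6, the kinase of D cyclins, had 261, 218 and 205 CPM at day 5, against 52.1, 116 and 151 CPM at day 3 (log2 change 1.10, SE 0.30, adjusted p = 0.0118). The call of Cdk6 was lost without day 3 library 1 (log2 change 0.78), when the list held 0 higher and 4 lower, and without day 3 library 3 it held 6 higher and 2 lower. Of 12 FoxO factors and targets, 6 fell and 2 rose, against 11.5% and 12.2% of all genes. Bcl6, a repressor that FoxO factors induce, had 113, 82.1 and 77.1 CPM at day 5, against 21.8, 23.3 and 36 CPM at day 3 (log2 change 1.75, SE 0.19, adjusted p = 1.63e-06). Falls in the FoxO list numbered 1 without day 3 library 1 or without day 5 library 1, and 3 without day 5 library 2 or 3. Falls over all genes tested were 1732 in the main fit and 917, 970, 1223 and 1271 in these fits, in the same order. Of 15 p53 targets, 6 fell and 1 rose, against the same shares of all genes. Trp53inp1, a stress-induced p53 partner, had 18.7, 25.5 and 24.7 CPM at day 5, against 232, 157 and 87.3 CPM at day 3 (log2 change −2.79, SE 0.43, adjusted p = 0.000132). Phlda3, an inhibitor of Akt, had 10.8, 10.6 and 10.5 CPM at day 5, against 28.5, 19.6 and 20.9 CPM at day 3 (log2 change −1.11, SE 0.17, adjusted p = 7.94e-05), and Zmat3, an RNA-binding p53 target, was 1.75-fold lower.

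Immediate early and ERK feedback genes, which respond within minutes to growth factor signals, rose in part. Of 24 tested, 13 were higher at day 5 and 0 were lower, against 12.2% of all genes higher, and the fitted change was positive in all 24 (median 1.29). Fos, a subunit of the AP-1 factor, had 96.5, 72.2 and 62.1 CPM at day 5, against 7.04, 7.83 and 14.8 CPM at day 3 (log2 change 2.95, SE 0.48, adjusted p = 0.000246). Dusp5, a phosphatase that inactivates ERK, had 27.3, 19.1 and 19.6 CPM at day 5, against 2.14, 2.47 and 4.64 CPM at day 3 (log2 change 2.82, SE 0.43, adjusted p = 0.000107). Both were without overlap, and day 3 library 3 held the highest day 3 value in each. Ier2, a short-lived nuclear protein, had 36.3, 31.6 and 28.2 CPM at day 5, against 21.9, 15.3 and 18.4 CPM at day 3 (log2 change 0.79, SE 0.15, adjusted p = 0.000965). Dusp1, a phosphatase of p38 and JNK, had 27.8, 19.7 and 18.7 CPM at day 5, against 8.25, 10.5 and 11.2 CPM at day 3 (log2 change 1.14, SE 0.23, adjusted p = 0.00152). The AP-1 gene Fosl1 was 6.88-fold higher (log2 change 2.78, SE 0.58, adjusted p = 0.00191). The summed level of the list was 1859, 1679 and 1559 CPM at day 5, against 420.0, 708 and 1133 CPM at day 3. The count of rises was 7 without day 5 library 1, 9 without day 3 library 1 and 7 without day 3 library 2. It was 8 in the fit of the 6 libraries alone, and 3 with the library number as a replicate block. The AP-1 words TGACTCA and TGAGTCA stood in 1 of the 17 promoters matched to this list (5.88%) and in 3.1% of those of all genes tested.

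In the Myc network and ribosome biogenesis list, 14 of 29 genes rose and 4 fell, against 12.2% and 11.5% of all genes (median 0.81). The 4 that fell, named after their values were seen, were Mxd1, Mxd3, Mxd4 and Mxi1, which oppose Myc at DNA. Mxd3 had 1.35, 1.52 and 1.44 CPM at day 5, against 6.06, 10.6 and 9.11 CPM at day 3 (log2 change −2.58, SE 0.27, adjusted p = 6.19e-07), and it overlaps Prelid1 on the other strand. Fbl, the methyltransferase fibrillarin of ribosomal RNA, had 91.4, 88.1 and 89.3 CPM at day 5, against 32.5, 53.7 and 62.8 CPM at day 3 (log2 change 0.85, SE 0.21, adjusted p = 0.00585). Pes1, a factor of large-subunit assembly, had 123, 116 and 119 CPM at day 5, against 80.7, 89.3 and 98.6 CPM at day 3 (log2 change 0.41, SE 0.09, adjusted p = 0.00296). Wdr43 and Rrp9, proteins of the small-subunit processome, were 2.08-fold and 2.09-fold higher, and both overlap other genes. The rises numbered 5 without day 5 library 1, 4 without day 3 library 1, 7 without day 3 library 2 and 22 without day 3 library 3. Rises over all genes tested were 1838 in the main fit and 1079, 1003, 1168 and 2244 in these fits, in the same order. With total counts 9 rose. In the fit of the 6 libraries alone 7 rose, and 0 did with the library number as a replicate block. Of the 4 falls, 1 was left without day 3 library 1 and 2 without day 5 library 1.

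**Figure D3:**
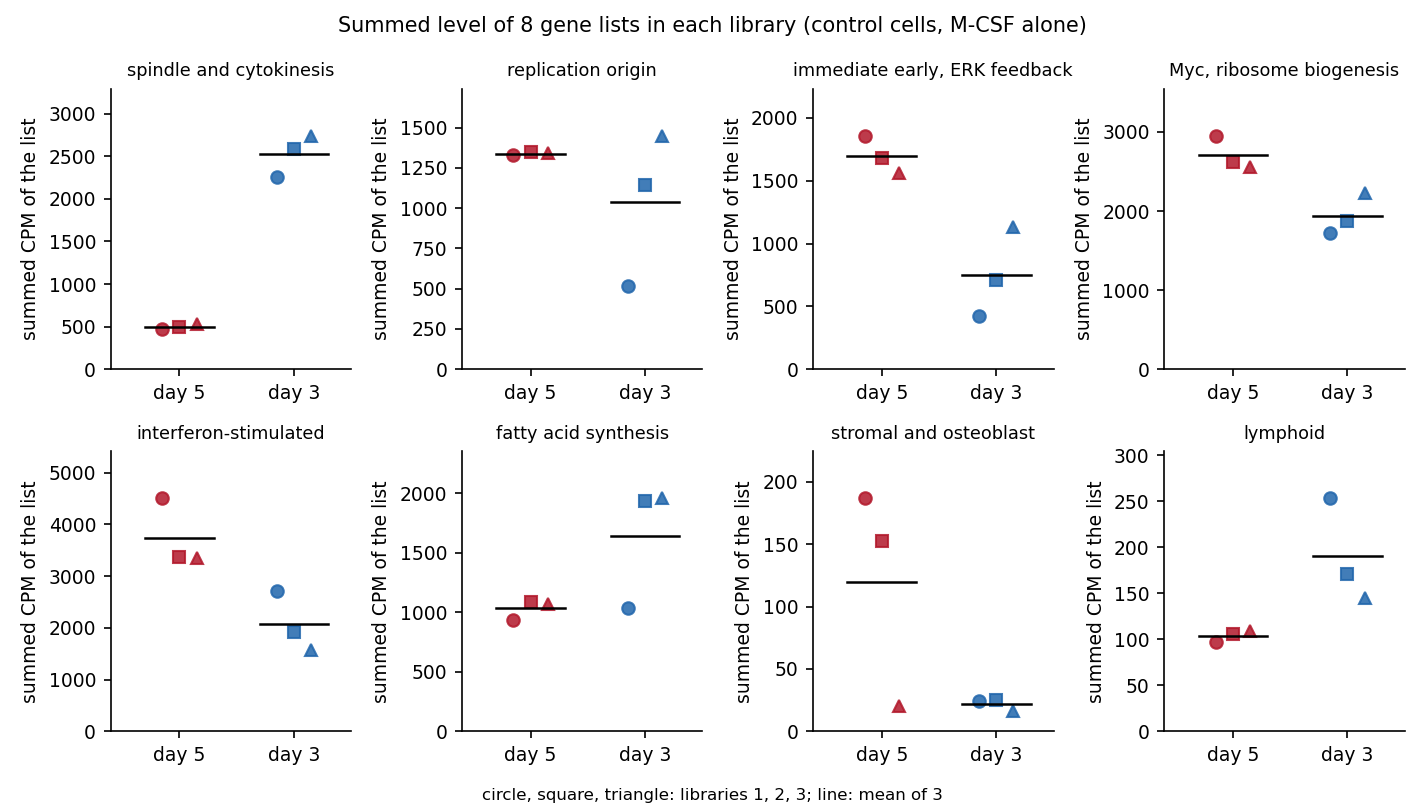
Summed level of 8 gene lists in each library, in CPM, with day 5 at the left and day 3 at the right of each panel; symbols mark the library number and the line is the mean of 3. The spindle list is lower at day 5 in every library, the origin list overlaps between the days, and the stromal list is high in day 5 libraries 1 and 2 and not in library 3.

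Of 35 genes that interferon induces, 11 rose and 1 fell, against 12.2% and 11.5% of all genes, and the fitted change was positive in 32 (median 0.91). Bst2, the membrane protein tetherin that holds budding virus, had 517, 420.0 and 489.8 CPM at day 5, against 169.7, 175 and 169 CPM at day 3 (log2 change 1.48, SE 0.19, adjusted p = 1.33e-05). Isg15, a ubiquitin-like modifier, had 41.5, 23.8 and 30.5 CPM at day 5, against 10.2, 6.11 and 5.44 CPM at day 3 (log2 change 2.14, SE 0.49, adjusted p = 0.00415). Both were without overlap, with day 5 library 1 highest in each. Oasl1, an oligoadenylate synthetase-like protein, was 3.12-fold higher (log2 change 1.64, SE 0.35, adjusted p = 0.00233). The count of rises was 6 without day 5 library 1 and 7 without day 3 library 2 or 3. It was 16 in the fit of the 6 libraries alone, and 18 with the library number as a replicate block.

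Of 21 inflammatory and NF-κB genes, 9 were higher at day 5 and 2 were lower, against 12.2% and 11.5% of all genes. Ccl4, a chemokine for monocytes and T cells, had 38, 28.1 and 25.5 CPM at day 5, against 4.38, 8.25 and 13.6 CPM at day 3 (log2 change 1.80, SE 0.36, adjusted p = 0.00148). Tnfaip3, the NF-κB inhibitor A20, had 34.6, 38.4 and 35.7 CPM at day 5, against 11.5, 10.1 and 21.5 CPM at day 3 (log2 change 1.33, SE 0.28, adjusted p = 0.00234). Ptgs2, the inducible cyclooxygenase, was low throughout at 2.24, 0.542 and 0.309 CPM at day 5, against 0.0466, 0.0932 and 0 CPM at day 3 (log2 change 4.38, SE 0.97, adjusted p = 0.00303). Tnfaip2 fell, with 151, 214 and 214 CPM at day 5, against 539, 375 and 281 CPM at day 3 (log2 change −1.04, SE 0.23, adjusted p = 0.00314), and it overlaps a predicted gene on the other strand. Il1a, Il1b, Il6, Il12b and Nos2, products of strongly activated macrophages, were too low to be tested. Rises numbered 5 without day 3 library 1 and 4 without day 3 library 2. They numbered 6 in the fit of the 6 libraries alone, and 1 with the library number as a replicate block.

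Of 15 chemokine and chemokine receptor genes, 4 rose and 1 fell, against 12.2% and 11.5% of all genes. In the fit without day 3 library 3, 7 rose and 2 fell, and 0 fell when any other of the 6 libraries was left out. Pf4, the chemokine Cxcl4, had 1499, 1529 and 1455 CPM at day 5, against 317, 397 and 416 CPM at day 3 (log2 change 1.99, SE 0.34, adjusted p = 0.000334). Cxcl14 had 157, 129.6 and 134 CPM at day 5, against 21.9, 47.6 and 61.3 CPM at day 3 (log2 change 1.68, SE 0.31, adjusted p = 0.000646). Ccr3, the eotaxin receptor, had 19.8, 19.3 and 13.7 CPM at day 5, against 2.52, 4.52 and 3.83 CPM at day 3 (log2 change 2.28, SE 0.43, adjusted p = 0.000846). All 3 were higher at day 5 without overlap. Cxcr4, the receptor for Cxcl12, fell to 14.3, 32.3 and 27.1 CPM at day 5, against 155, 63.1 and 24.9 CPM at day 3 (log2 change −1.72, SE 0.60, adjusted p = 0.0442), but the groups overlapped, and without day 3 library 1 the change was −0.84 and did not pass.

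**Figure D4:**
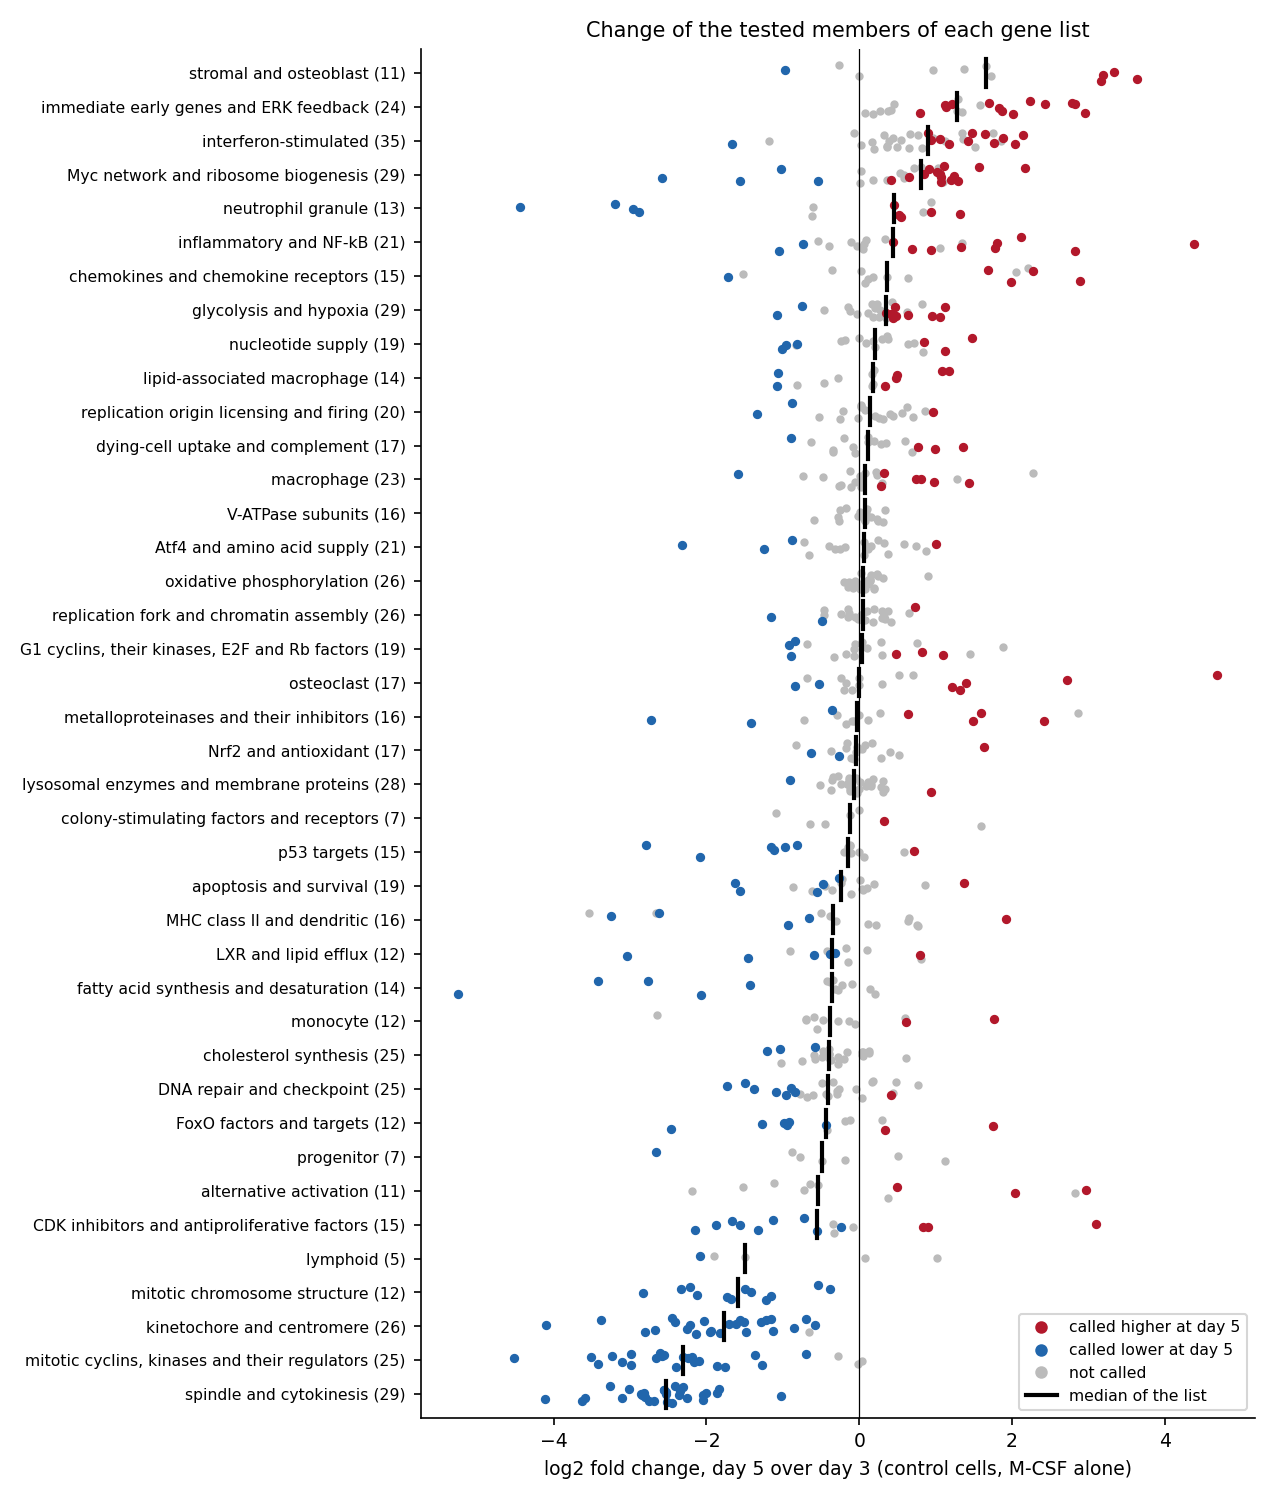
Log2 fold change between day 5 and day 3 (horizontal axis) of every tested member of the gene lists with at least 5 tested members; each row is a list with its number of tested members, red points were called higher at day 5, blue points lower, and grey points were not called. The 4 mitosis lists stand at the bottom with medians of −2.54 to −1.59, and the replication and V-ATPase lists lie around 0.

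Of 14 genes of fatty acid synthesis and desaturation, 5 fell, 0 rose and 9 were not called (median −0.36), against 11.5% of all genes lower. Scd1, the stearoyl-CoA desaturase that makes oleate, had 0.599, 1.46 and 0.618 CPM at day 5, against 28.9, 50.6 and 22 CPM at day 3, a 37.9-fold lower level (log2 change −5.25, SE 0.42, adjusted p = 1.95e-08). Scd2, its relative, had 21.6, 41.9 and 42.2 CPM at day 5, against 122, 528 and 479.9 CPM at day 3 (log2 change −3.42, SE 0.47, adjusted p = 3.96e-05). Scd1 and Scd2 are similar in sequence, and the sources used here do not say how reads that match both were counted. Fads2, the delta-6 desaturase of polyunsaturated fatty acids, had 4.64, 8.78 and 8.97 CPM at day 5, against 31.1, 64.6 and 55.9 CPM at day 3 (log2 change −2.76, SE 0.35, adjusted p = 1.11e-05). All 3 were lower without overlap. In this list 9 genes fell without day 3 library 1. Acss2, which makes acetyl-CoA from acetate, was 2.70-fold lower (log2 change −1.43, SE 0.24, adjusted p = 0.000325), and it overlaps Gss on the other strand.

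Of 12 tested genes of the liver X receptor and lipid efflux list, 5 fell, 1 rose and 6 were not called, against 11.5% and 12.2% of all genes. Abcg1 and Abca1 are transporters that pass cholesterol to lipoproteins and are induced by the liver X receptor. Abcg1 had 11, 6.99 and 9.64 CPM at day 5, against 115, 69.1 and 43.6 CPM at day 3 (log2 change −3.04, SE 0.40, adjusted p = 1.83e-05). Abca1 had 175, 212 and 182 CPM at day 5, against 740.2, 499.7 and 323 CPM at day 3 (log2 change −1.46, SE 0.27, adjusted p = 0.000668). Neither overlapped between the days. The gene that rose was Pparg, a lipid-sensing nuclear receptor, with 20.8, 16.3 and 15.6 CPM at day 5, against 11.9, 9.04 and 9.43 CPM at day 3 (log2 change 0.80, SE 0.19, adjusted p = 0.00584). The falls numbered 2 without day 5 library 1, and 3 without day 5 library 2 or day 3 library 2. Of 25 cholesterol synthesis genes, 3 fell, 0 rose and 22 were not called, against 11.5% of all genes lower and 12.2% higher. The share that fell was thus near that of all genes. Among the falls was Mvd, the mevalonate decarboxylase, with 19.8, 26 and 34.3 CPM at day 5, against 37.8, 65.5 and 61 CPM at day 3 (log2 change −1.04, SE 0.24, adjusted p = 0.00473). Lbr, which is a sterol reductase and also a nuclear envelope protein, had 30.8, 35.8 and 33.6 CPM at day 5, against 61.8, 77.8 and 90.5 CPM at day 3 (log2 change −1.20, SE 0.16, adjusted p = 2.03e-05), and it overlaps Dnah14 on the other strand. Falls in this list numbered 6 without day 3 library 1 and 2 when any other of the 6 libraries was left out.

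Of 14 lipid-associated macrophage genes, 5 were higher at day 5 and 2 were lower, against 12.2% and 11.5% of all genes. Lpl, the lipoprotein lipase, had 2308, 1602 and 1575 CPM at day 5, against 711, 823 and 901 CPM at day 3 (log2 change 1.17, SE 0.19, adjusted p = 0.000157). Plin2, the coat protein of lipid droplets, had 869, 567 and 534 CPM at day 5, against 326, 293 and 311 CPM at day 3 (log2 change 1.08, SE 0.13, adjusted p = 4.54e-06). Fabp5, a fatty acid carrier, fell to 120.1, 211 and 261 CPM at day 5, against 426, 472 and 348 CPM at day 3 (log2 change −1.07, SE 0.25, adjusted p = 0.00436). The rises numbered 2 without day 5 library 2 or 3, and 3 when any other of the 6 libraries was left out, and 2 with total counts.

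Of 29 glycolysis and hypoxia genes, 9 were higher at day 5 and 2 were lower (median 0.35), against 12.2% and 11.5% of all genes. Hk2, the inducible hexokinase, had 117, 110.1 and 102 CPM at day 5, against 43.1, 47.5 and 59.9 CPM at day 3 (log2 change 1.13, SE 0.22, adjusted p = 0.00102), and it overlaps a predicted gene. Aldoc, the brain-type aldolase, fell to 21.6, 27.2 and 32.5 CPM at day 5, against 63, 62.7 and 46 CPM at day 3 (log2 change −1.08, SE 0.22, adjusted p = 0.00205). Rises in this list numbered 5 without day 3 library 1 and 6 without day 5 library 1, and 1 of the 2 falls was left without either. The fit of the 6 libraries alone gave 4 rises, and 1 with the library number as a replicate block. None of 26 oxidative phosphorylation genes and none of 16 V-ATPase genes was called (medians 0.05 and 0.07), and of 28 lysosomal genes 1 rose and 1 fell (0 fell without day 3 library 1). With total counts alone, 4 V-ATPase genes, 6 lysosomal genes and 2 oxidative phosphorylation genes were called lower. Hmox1, the heme-degrading enzyme, had 2999.7, 2835 and 2875 CPM at day 5, against 529, 936 and 1339 CPM at day 3 (log2 change 1.63, SE 0.26, adjusted p = 0.000161). It was the 1 gene of 17 in the antioxidant list that rose, while 2 fell and 14 were not called (median −0.04). Slc3a2, the shared chain of amino acid transporters, had 485, 434 and 426 CPM at day 5, against 171, 230.2 and 269 CPM at day 3 (log2 change 1.01, SE 0.14, adjusted p = 5.15e-05). It was the 1 rise among 21 genes of amino acid supply, of which 3 fell and 17 were not called (median 0.07). Of 19 apoptosis and survival genes 5 fell and 1 rose (3 fell without day 5 library 1 or 2 or day 3 library 1). The proapoptotic gene Bbc3, which encodes Puma, had 11.3, 11.4 and 15.4 CPM at day 5, against 59.4, 34.9 and 24.1 CPM at day 3 (log2 change −1.63, SE 0.31, adjusted p = 0.00105).

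Of 23 macrophage genes, 6 were higher at day 5 and 1 was lower, against 12.2% and 11.5% of all genes. Their median was 0.0813, and it was 0.236 without day 3 library 1, 0.183 without day 5 library 1 and −0.0283 with total counts. Fcgr1, the high-affinity receptor for IgG, had 302, 221 and 221 CPM at day 5, against 93.8, 91.8 and 88.2 CPM at day 3 (log2 change 1.44, SE 0.29, adjusted p = 0.00134). Cd36, a receptor for oxidised lipoprotein, had 3149, 2911 and 2617 CPM at day 5, against 1659.9, 1863 and 1653 CPM at day 3 (log2 change 0.75, SE 0.12, adjusted p = 0.000225). Marco, a scavenger receptor for bacteria, fell to 40.7, 80.2 and 90.5 CPM at day 5, against 169, 285 and 183 CPM at day 3 (log2 change −1.59, SE 0.39, adjusted p = 0.00602). These 3 were without overlap between the days. C5ar1 and C3ar1, the receptors of complement fragments, were 2.57-fold and 1.71-fold higher (adjusted p = 0.00191 and 0.00388), and Pros1, which bridges dying cells to their receptors, was 1.86-fold lower (adjusted p = 0.000427). Rises in the macrophage list numbered 4 without day 5 library 1 or 3, or without day 3 library 1 or 2. Arg1, the arginase of alternative activation, was low at 9.08, 5.47 and 4.33 CPM at day 5, against 1.21, 1.82 and 1.57 CPM at day 3 (log2 change 2.03, SE 0.44, adjusted p = 0.00255). Of the 11 tested genes of alternative activation, 3 were called higher, 0 lower and 8 were not called. Their fitted change was positive in 5 and negative in 6, with a median of −0.54.

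Proteinase genes beside Mmp9 also moved. Mmp13, a collagenase, had 25.5, 25.7 and 26.2 CPM at day 5, against 7.13, 7.88 and 10.6 CPM at day 3 (log2 change 1.60, SE 0.26, adjusted p = 0.000195). Adam8, a membrane proteinase of myeloid cells, had 4311, 3584 and 3418 CPM at day 5, against 773, 1357 and 1900.1 CPM at day 3 (log2 change 1.49, SE 0.29, adjusted p = 0.00124), and it overlaps a predicted gene on the other strand. Mmp8, the neutrophil collagenase, fell to 20.7, 32.8 and 28.2 CPM at day 5, against 107, 61.9 and 50.1 CPM at day 3 (log2 change −1.42, SE 0.31, adjusted p = 0.00267). Of 16 tested metalloproteinases and inhibitors 4 rose and 3 fell, against 12.2% and 11.5% of all genes, and 1 fell without day 5 library 1 or 2. Of 17 osteoclast genes 5 rose and 2 fell, against the same shares of all genes, and the median was 0 because Oscar and Calcr had no counts. Tnfrsf11a, the receptor for RANKL, had 236, 196 and 183 CPM at day 5, against 57.3, 90.7 and 117 CPM at day 3 (log2 change 1.22, SE 0.21, adjusted p = 0.0005), without overlap. Scin, an actin-severing protein, had 8 counts over the 3 day 5 libraries and 0 over the 3 day 3 libraries, at least 3.12-fold higher against a floor of 3 counts over the group, a bound that covers counting error only. Its call was lost on leaving out most single libraries. Dcstamp and Ocstamp, which cell fusion needs, reached 1.77 and 0.508 CPM on average at day 5. In this list 2 rose and 0 fell without day 5 library 1 or day 3 library 1.

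Markers of other cells were mostly low, and some moved with the days. Of 13 neutrophil granule genes, 5 rose (2 without day 5 library 1 or 2 or day 3 library 1, and 2 with total counts) and 4 fell, with a median of 0.459. For this and the lists that follow, the shares over all genes tested were 12.2% higher and 11.5% lower. Mpo, the myeloperoxidase, had 0.549, 1.68 and 0.464 CPM at day 5, against 6.25, 8.95 and 9.47 CPM at day 3 (log2 change −3.20, SE 0.50, adjusted p = 0.000142), and Elane, the neutrophil elastase, had 0.200, 0.108 and 0.155 CPM at day 5, against 2.66, 2.89 and 4.92 CPM at day 3 (log2 change −4.45, SE 0.81, adjusted p = 0.000664). Ltf, which encodes lactoferrin of later granules, was higher, with 32.1, 29.6 and 24.8 CPM at day 5, against 11.5, 12 and 11.1 CPM at day 3 (log2 change 1.32, SE 0.20, adjusted p = 8.19e-05). The summed level of the list was 164, 159.7 and 133 CPM at day 5, against 94.4, 121 and 119 CPM at day 3. Of 7 tested progenitor genes 1 fell, the stem cell antigen gene Cd34, with 0.399, 0.433 and 0.103 CPM at day 5, against 1.07, 1.63 and 3.26 CPM at day 3 (log2 change −2.66, SE 0.58, adjusted p = 0.00268). Ighm, the heavy chain of immunoglobulin M, had 16.5, 27.6 and 33.4 CPM at day 5, against 152, 102 and 74.6 CPM at day 3 (log2 change −2.08, SE 0.30, adjusted p = 5.65e-05), whereas the T cell gene Cd3e had 0 counts in all 6 libraries. Summed lymphoid genes were 97.2, 105 and 109 CPM at day 5, against 254, 171 and 145 CPM at day 3. Of 12 monocyte genes 2 rose, S100a6 with 489.7, 472 and 514 CPM at day 5, against 312, 327 and 328 CPM at day 3 and Nr4a1 with 11, 9.53 and 9.84 CPM at day 5, against 3.68, 0.979 and 4.23 CPM at day 3. In this list 0 were called lower, but the fitted change was negative in 9 and positive in 3. The median was −0.38, and it was 0.00218 without day 3 library 1. Red cell genes Hba-a1 and Hbb-bs had 0 counts. Of 2 tested genes of the red cell and megakaryocyte list 1 rose, the platelet chemokine gene Ppbp, with 5.79, 5.36 and 4.95 CPM at day 5, against 1.45, 0.792 and 1.05 CPM at day 3 (log2 change 2.29, SE 0.40, adjusted p = 0.000429). The summed level of that list was 6.49, 6.01 and 5.67 CPM at day 5, against 1.96, 1.54 and 1.41 CPM at day 3. The part of these cells in the results above was not tested.

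Collagen and matrix genes were high in 2 of the 3 day 5 libraries. Nptx1, a secreted pentraxin, was higher in all 3, with 144, 87.7 and 67.1 CPM at day 5, against 2.00, 3.92 and 6.65 CPM at day 3 (log2 change 4.56, SE 0.94, adjusted p = 0.0019). Col1a1, the main collagen of bone and fibroblasts, had 65.3, 55.4 and 4.69 CPM at day 5, against 5.17, 5.55 and 1.77 CPM at day 3 (log2 change 3.34, SE 1.03, adjusted p = 0.0246). Day 5 library 3 lay within the day 3 range of Col1a1, and its call was lost when any of 5 libraries was left out (2.87 without day 5 library 1). The summed level of the stromal and osteoblast list was 187, 152 and 20.4 CPM at day 5, against 24.7, 24.8 and 16.5 CPM at day 3. Of its 11 tested genes 4 were higher (Postn, Sparc, Col1a1 and Col1a2) and 1 was lower, against 12.2% and 11.5% of all genes. Without day 5 library 1, or without day 3 library 1 or 2, 0 were higher, and 1 was without day 5 library 2 or day 3 library 3. Without day 5 library 3, 5 were higher. The stromal marker Dcn had 0 counts in all 6 libraries, and Pdgfra and Alpl, which were too low to be tested, had 7 and 0 counts in total at day 5, against 1 and 5 at day 3. Fn1, the matrix protein fibronectin, which macrophages also make, had 132, 117 and 59.7 CPM at day 5, against 6.71, 14.2 and 18.5 CPM at day 3 (log2 change 2.96, SE 0.72, adjusted p = 0.00626), and it missed the threshold without day 3 library 1 (log2 change 2.66). Id1, an inhibitor of helix-loop-helix factors, had 31.8, 23.2 and 18.4 CPM at day 5, against 0.326, 1.21 and 4.31 CPM at day 3 (log2 change 3.62, SE 0.72, adjusted p = 0.00134). The part of stromal cells in these rises was not tested.

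The change over days in M-CSF alone was set against that in M-CSF with RANKL, where 4027 of 15035 genes were called (26.8%). The difference between both changes, tested in the same fit with no library shared, was called for 2103 genes (14.0%), 1012 positive (6.73%) and 1091 negative (7.26%). Of the 92, the difference was negative in 89 and positive in 0, and with RANKL 84 were higher at day 5 than at day 3 and 0 were lower (median 1.16), against 14.1% of all genes higher there. Ccnb2 averaged 4.0 ± 0.359 CPM at day 5 and 92 ± 7.18 CPM at day 3 in M-CSF alone, and 57.9 ± 1.66 and 39 ± 8.16 CPM with RANKL (SD, n = 3 each; difference −5.09, SE 0.21, adjusted p = 2.31e-12). The mean at day 5 was lower in M-CSF alone than with RANKL and the mean at day 3 was higher, differences between media that were not tested. Cenpf averaged 6.64 ± 1.85 and 114 ± 15.1 CPM at days 5 and 3 in M-CSF alone, and 95.4 ± 12.9 and 35.2 ± 6.58 CPM with RANKL (difference −5.54, SE 0.34, adjusted p = 4.15e-10). Mki67 averaged 102 ± 22 and 729 ± 127 CPM in M-CSF alone, and 536 ± 57.1 and 274 ± 70.2 CPM with RANKL (difference −3.80, SE 0.33, adjusted p = 6.71e-08). Among the 46 replication genes the difference was negative in 10, and with RANKL 21 of them were higher at day 5 and 0 were lower.

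Mmp9 differed in the other direction (difference 1.68, SE 0.29, adjusted p = 0.000464). It averaged 23.9 ± 2.98 CPM at day 5 and 9.01 ± 1.55 CPM at day 3 in M-CSF alone, and 19654 ± 808 and 23742 ± 4115 CPM with RANKL, where the change over days did not pass the test (log2 change −0.27, adjusted p = 0.327). Lox, the lysyl oxidase that crosslinks collagen, had 10.3, 8.67 and 0.979 CPM at day 5, against 0.513, 1.03 and 0.202 CPM at day 3 in M-CSF alone, and averaged 19.4 ± 1.77 and 68.3 ± 16.5 CPM at days 5 and 3 with RANKL (difference 5.36, SE 1.04, adjusted p = 0.00138). Flnc, an actin crosslinker, had 2.00, 1.19 and 0.155 CPM at day 5, against 0.0466, 0.0466 and 0.0806 CPM at day 3 in M-CSF alone (difference 4.57, SE 1.00, adjusted p = 0.00362), and Fstl1, a secreted glycoprotein, had 4.54, 5.09 and 0.155 CPM at day 5, against 0.233, 0.326 and 0.282 CPM at day 3 (difference 4.21, SE 1.16, adjusted p = 0.0177). In these 3 genes day 5 library 3 lay far below the other 2, as it did for the stromal list. The difference for Fstl1 was not called without day 5 library 2 (3.77). Among the most negative differences were also those of Sapcd2, Aspm and Pif1. Sapcd2, a regulator of spindle orientation, had 0.549, 1.19 and 0.979 CPM at day 5, against 6.06, 9.56 and 11.1 CPM at day 3 in M-CSF alone, and averaged 15.6 ± 0.568 and 3.62 ± 1.15 CPM at days 5 and 3 with RANKL (difference −5.41, SE 0.54, adjusted p = 3.61e-07). Aspm averaged 73.2 ± 8.43 and 32.2 ± 8.17 CPM with RANKL (difference −5.30, SE 0.28, adjusted p = 5.05e-11), and Pif1 27.3 ± 4.31 and 9.67 ± 2.76 CPM (difference −5.19, SE 0.33, adjusted p = 4.47e-10). Of 26 oxidative phosphorylation genes, 24 were lower at day 5 with RANKL (12.7% of all genes were) and 0 were called in M-CSF alone, and the difference was positive in 18. Mitochondrial transcripts took 3.44% ± 0.202 of counts at day 5 and 3.65% ± 0.435 at day 3 with RANKL.

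In LysM-Cre cells in M-CSF alone, 2143 genes were called between day 5 and day 3 (14.3%), with 1078 higher (7.17%) and 1065 lower (7.08%). The difference of the day change between control and LysM-Cre cells was called for 0 of 15035 genes (0%) with edgeR, where the smallest adjusted p was 0.99999. With DESeq2 it was also called for 0. An unadjusted p under 0.05 was found for 338 genes with edgeR and 374 with DESeq2. Both counts are a smaller share of the genes than the 0.05 that this threshold itself allows. Of the 92 mitosis genes 85 fell in LysM-Cre cells and 0 rose, with a median of −1.99. Ccnb2 averaged 4.0 ± 0.359 CPM at day 5 and 92 ± 7.18 CPM at day 3 in control cells, and 5.43 ± 0.503 and 91.4 ± 7.60 CPM in LysM-Cre cells, with a difference of −0.45 (SE 0.21). Mmp9 averaged 12.7 ± 4.09 CPM at day 5 and 4.77 ± 0.959 CPM at day 3 in LysM-Cre cells, a log2 change of 1.41 beside 1.40 in control cells (difference −0.01, SE 0.30). A difference that misses the threshold does not show that both genotypes changed alike. LysM-Cre libraries numbered 3 carried Y-linked counts of 542 to 847 and Xist counts of 2 to 12, the pattern of male cells, while all control libraries had 0 to 1 Y-linked counts.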

How the data were processed

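The sources used here give no strand setting for the counting. Libraries were prepared with a TruSeq RNA kit from RNeasy RNA, per the labels' protocols. STAR, DESeq2 and GRCm39 are named, per the submitters' processing notes, without their roles, while 53585 of the 54495 gene identifiers found in GENCODE M21 (98.33%) had their GRCm38 position in the table. The deposited values are raw gene counts, as the authors tabulated them, for 54532 genes in 24 libraries. All value columns were matched to samples by name.

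Counts of all 24 libraries were fitted in R 4.3.3 with edgeR 4.0.16 (filterByExpr, TMM scaling, robust quasi-likelihood test, 1 coefficient per group), which kept 15035 genes (27.57%). Calls are Benjamini-Hochberg adjusted p under 0.05 over all genes tested. CPM are per 1000000 counts of the TMM-scaled library total, and folds and intervals (95%) come from the fit. The script was tested on simulated data. Alternatives were DESeq2 1.42.0, limma 3.58.1 (voom), other scaling, filters, sample sets and blocks, and each replicate left out.

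Named genes were the markers, the 12 largest rises and 12 largest falls among called genes with mean log2 CPM of at least 1, no overlap and no predicted symbol, the members with the smallest p in each list (at most 5), the 4 most positive and 4 most negative differences of day changes, and markers of identity and of other cell types. The text describes some of these. The members and the 42 gene lists (805 symbols, 746 tested) were chosen with earlier results of these data known. Promoters came from RefSeq, matched by symbol where the start lay within 500 bases of the deposited 5′ end. Some genes are not reported here.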

Additional observations from a re-analysis of the deposited data

Results flagged for a closer look

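The change between day 5 and day 3 differed between M-CSF alone and M-CSF with RANKL for 2103 genes by the test of the difference itself. On the log2 scale, as the change in M-CSF alone minus that with RANKL, the difference was −5.54 for Cenpf, −5.41 for Sapcd2, −5.30 for Aspm, −5.19 for Pif1, −5.09 for Ccnb2 and −3.80 for Mki67. It was 1.68 for Mmp9, 4.21 for Fstl1, 4.57 for Flnc, 5.25 for Scin and 5.36 for Lox. The value of Scin depends on the prior count of the fit, since its day 3 libraries in M-CSF alone held 0 counts. It lost its call without day 3 library 1, 2 or 3, without day 5 library 1 or 3, without a filter on low counts and without the male-pattern libraries. That of Fstl1 lost its call without day 5 library 2 and without the filter.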

How the results depend on the processing

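No call of the 188 named genes changed direction in any of the 16 alternatives that tested it (180 were tested in the fits of 6 libraries, 187 with a minimum of 1 CPM), and 97 stayed called wherever tested, among them Ccnb2, Cenpf, Mki67 and Mmp9. Leaving out 1 library at a time gave 1920 to 4203 calls (1003 to 2244 higher, 917 to 1959 lower, 222 to 605 higher and 441 to 821 lower by over 2-fold). For the difference from RANKL it gave 1544 to 2061 calls (698 to 1052 positive, 785 to 1042 negative), and for the difference from LysM-Cre cells 0. These fits tested 15453 to 15531 genes, beside 15035 in the main fit, and the filter was applied anew in each. Scaling by total counts gave 1063 higher. Without a filter on low counts, 589 differences from RANKL were positive, of 29368 genes tested. DESeq2 called 4008 genes and limma voom 3403, of the same 15035. A fit of the 6 libraries alone without a replicate block called 2089 of 12924 genes tested (938 higher, 1151 lower, 252 higher by over 2-fold). With the number as a replicate block it called 727 of these 12924 genes (259 higher, 468 lower, 131 higher and 333 lower by over 2-fold). The main fit had no such block because no label says what the number marks. The deviations of same-numbered libraries correlated at −0.0658, 0.0522 and −0.0117. With 3 libraries per day these values cannot decide whether libraries of the same number were pairs. In LysM-Cre cells, number 3 marked the male pattern on both days and in both media. With the numbered set as a replicate block in all 24 libraries, 4015 genes and 2310 differences from RANKL were called. Without the 4 LysM-Cre libraries with male-pattern counts, an alternative chosen after seeing the data, the counts were 3856 and 2336 of 15339 genes tested. The cause of these shifts was not tested. Genes near 1 count per library, such as Scin, are limited by depth.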
